A study of Homo sapiens with 6 samples.

Results

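Transcripts of 49 genes of ribosome biogenesis and the nucleolus were followed in MOLM-13 cells, an established human acute myeloid leukaemia line that the labels class as AML-M5. The genes were chosen by name, with earlier results of these data known. They are proteins of the small nucleolar ribonucleoproteins (snoRNPs), and processing and assembly factors of the ribosomal subunits. The others are subunits and factors of RNA polymerase I, and abundant nucleolar proteins. Counts among them are thus a description, not independent support. All 49 were found once each among the 24878 genes of the deposited table, and all 49 passed the filter on low counts, which kept 14601 genes. The table holds 6 libraries of poly-A RNA in 3 groups of 2. The control libraries carried the genotype label control and received no doxycycline. The other libraries came from cells with a doxycycline-inducible vector for CaMK2D knockout (KO), after 3 or after 5 days of doxycycline. Total counts ranged from 15456770 to 21081298 per library. The control and KO groups thus differ in genotype label and in doxycycline together. A difference in vector is read from these labels alone. The labels give neither the clonal state of the KO cells nor whether libraries of a group were separate cultures. The p-values therefore reflect how far these libraries vary, and that variation may be technical.

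Ribosome production starts in the nucleolus, where RNA polymerase I transcribes the long precursor of the ribosomal RNAs. Box C/D snoRNPs add methyl groups to that precursor and box H/ACA snoRNPs convert uridines to pseudouridines, while the small subunit processome and the large subunit assembly factors fold, cut and load it with ribosomal proteins. Many genes of this system are known targets of MYC, a transcription factor of the basic helix-loop-helix family that binds the E-box CACGTG, and leukaemic blasts are known for prominent nucleoli.

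The targeted gene CAMK2D stood at 23 and 14.5 CPM in the 2 control libraries, 14.7 and 15.6 in those of day 3, and 29 and 28.1 in those of day 5, and differed from control by -0.30 (log2, adjusted p = 0.437 by edgeR, SE 0.23) at day 3 and 0.61 (log2, adjusted p = 0.118 by edgeR, SE 0.23) at day 5. Its mRNA was not lower past the threshold in the libraries labelled KO, and the groups are called by their labels throughout. Markers chosen for the monocytic leukaemia line were all 12 in the table. Their summed FPKM was 1002 to 1256 in the controls, 473 to 542 at day 3 and 518 to 687 at day 5. This change moved with the groups, and its part in the members' values was not tested. The single markers differed. MPO (log2 -5.41 and -6.39), FLT3 (-1.54 and -1.93), CD4 (-0.90 and -1.01) and SPI1 (-0.69 and -0.58) were lower at day 3 and day 5. CEBPA was higher at day 5 only (log2 0.48), all at an edgeR adjusted p under 0.05. CD33, CSF2RA, HOXA9, ITGB2, LYZ, MEIS1 and PTPRC did not pass at either day. Of the 20 listed markers of other cell types 7 were in the table, and the highest summed level was 9.72 FPKM, for the epithelial list in a control library.

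At day 3 of doxycycline the group was higher than in the controls, and at day 5 the median member stood close to control. Of the 49 members 22 rose and 0 fell at day 3 (edgeR adjusted p under 0.05), where 5.72% of all genes tested rose and 5.99% fell. At day 5, 4 rose and 0 fell, where 7.44% of all genes tested rose and 7.05% fell. At an unadjusted edgeR p under 0.05, 0 members were lower at day 3 and 3 at day 5, where 14.5% and 14.8% of all genes were, and DESeq2 called 0 and 1 lower, where it called 8.97% and 9.21%. Without a filter edgeR called 2 members lower at day 5, where 7.17% of all genes were. With the replicate number as a block edgeR called 37 members higher at day 3, where 13.6% of all genes were called higher, and 11 at day 5, where 15.8% were. It then called 2 members lower at day 5, where 14.5% of all genes were. The median log2 fold change of the members against control was 0.48 at day 3 and 0.07 at day 5, beside -0.00012 and 0.01 over all genes tested. In linear terms the median member stood 1.40-fold above control at day 3 and 1.05-fold at day 5. The members' summed share of all counts was 0.889% and 0.862% in the control libraries. In the day 3 libraries it was 1.15% and 1.21%, above both controls, and in the day 5 libraries 1.0% and 0.939%. The libraries are bulk RNA scaled to their totals, so a change in RNA per cell and a change in the mix of cells cannot be told apart.

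**Figure D1:**
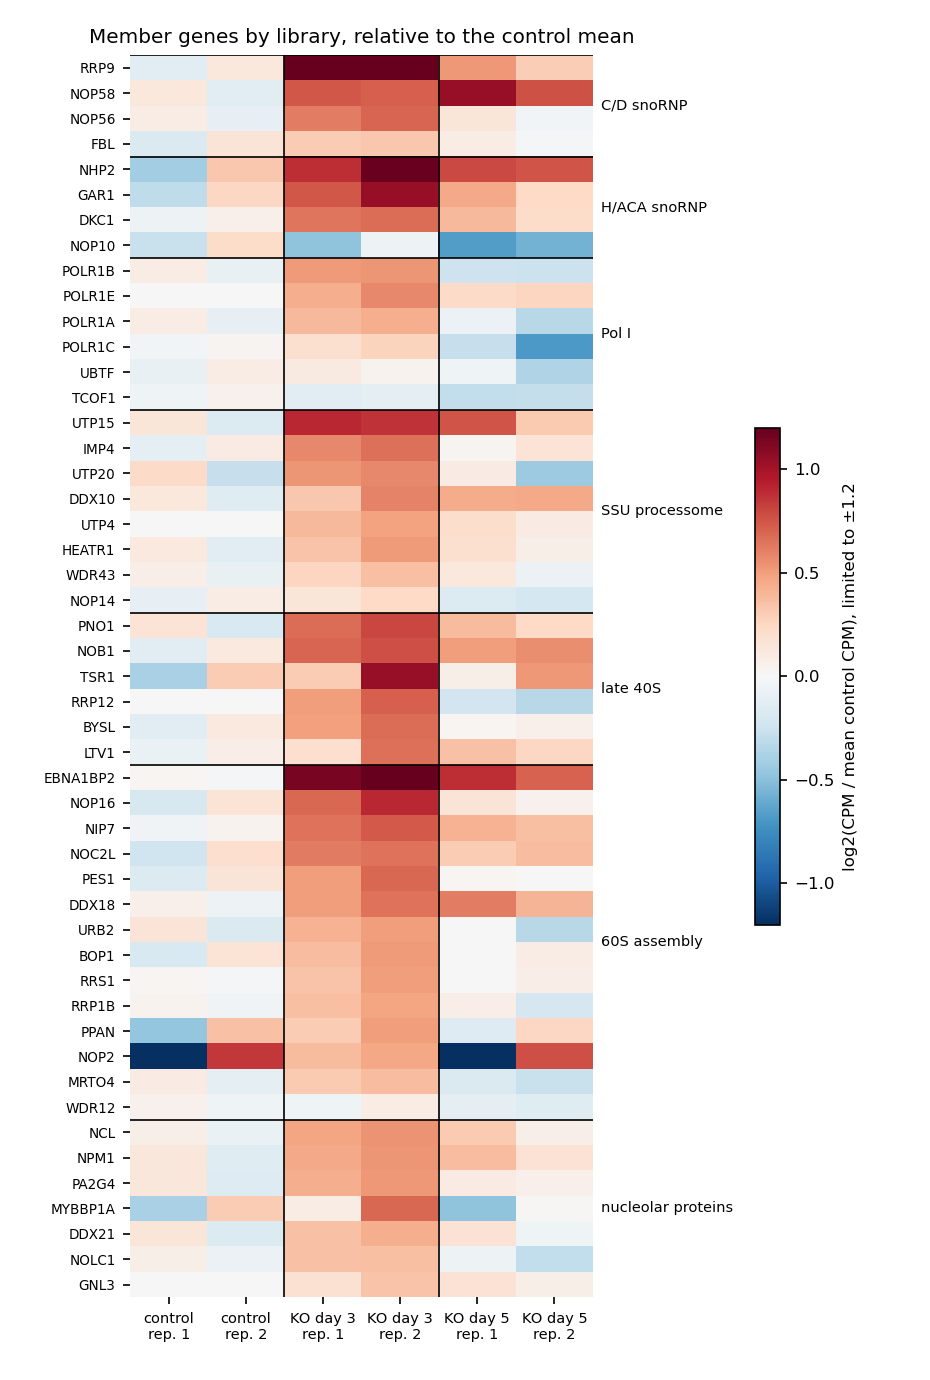
Level of each of the 49 members (rows, grouped by role) in each of the 6 libraries (columns), as log2 of TMM-scaled CPM over the mean of the 2 controls, with colours limited to ±1.2. Both day 3 libraries are above both controls for 41 of the 49 members and below for 1 (30.3% and 30.1% of all genes tested). Both day 5 libraries are above both controls for 17 and below for 8 (29.6% and 28.4% of all genes tested). The NOP2 row rests on very few counts.

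The single libraries showed the same order. For 41 of the 49 members both day 3 libraries were above both controls, and for 1 both were below, where 30.3% and 30.1% of all genes tested did so. At day 5 both libraries were above both controls for 17 members and below them for 8, where 29.6% and 28.4% of all genes did so. The calls at day 3 rested on both day 3 libraries. When KO day 3 replicate 1 was left out, 2 members passed (EBNA1BP2 and RRP9), and the other 20 had edgeR adjusted p of 0.0726 to 0.199; when KO day 3 replicate 2 was left out, the same 2 passed and the others had 0.0946 to 0.279. Over all genes tested the share called higher was then 0.76% and 0.85%, and the median log2 fold change of the members was 0.55 and 0.43. With limma on log2(FPKM + 1) and no filter these 2 members and 0.334% of all genes were called higher. A fit of just the control and day 3 libraries called 13 members and 4.43% of all genes higher. KO day 3 replicate 2 stood above replicate 1 for 46 of the 49 members (51.9% of all genes tested), by a median log2 of 0.09. KO day 5 replicate 2 stood above replicate 1 for 14 of the 49 (48.1% of all genes tested), with a median log2 of -0.10.

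Sequences around the E-box are shown because many members are known MYC targets. RefSeq promoter windows (GRCh38.p14, 250 bases before to 50 after a transcript start, every listed start of a gene) were matched by symbol for 39 of the 49 members. CACGTG, which reads the same on both strands, was present in a window of 19 of these 39 members (48.7%). The same held for 22 of 102 other genes of the pathway with a window (21.6%). It held for 12.7% of the 9982 genes tested that have a window, and for 8.77% of all genes with a promoter window. CACGTG lay within 40 bases of a start, a distance chosen after the positions were seen, in 18 of the 39 members (46.2%). It did so in 4.20% of the genes tested that have a window. Among the members with a window, 8 of the 18 that rose at day 3 (44.4%) and 11 of the 21 that did not pass (52.4%) held it. No test was run on these shares. For comparison CCAAT, searched on both strands, was present in 43.6% of the members and 43.0% of the genes tested, counting those with a window. The stretches of the 8 members that rose at day 3 and hold CACGTG follow with 12 bases on each side, 5′ to 3′ on the gene's strand, with the motif in capitals. IMP4 holds it at 2 places. Stretches of the 11 members that hold CACGTG and did not pass are not shown. The first 3 members were taken by their adjusted p, and the others were added after their values were seen.
EBNA1BP2, chr1:43172790-43172819, minus strand: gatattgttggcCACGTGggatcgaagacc
RRP9, chr3:51941892-51941921, minus strand: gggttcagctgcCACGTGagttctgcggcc
IMP4, chr2:130342682-130342711, plus strand: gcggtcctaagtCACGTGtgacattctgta
IMP4, chr2:130342900-130342929, plus strand: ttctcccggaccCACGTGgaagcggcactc
PNO1, chr2:68157885-68157914, plus strand: ggtgcagctgcgCACGTGtttcagccggca
GAR1, chr4:109815781-109815810, plus strand: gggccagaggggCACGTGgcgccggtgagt
BYSL, chr6:41921515-41921544, plus strand: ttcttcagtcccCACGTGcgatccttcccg
PES1, chr22:30591880-30591909, minus strand: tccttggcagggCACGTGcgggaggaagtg
UTP4, chr16:69132621-69132650, plus strand: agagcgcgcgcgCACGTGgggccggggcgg
A match of these letters is a description of the sequence, not a measured binding site. In RRP9 the motif started 5 bases before the transcript start, and in PES1, PNO1 and UTP4 at position 14, 10 and -16, counting the first transcribed base as 1. In EBNA1BP2, which has 2 listed starts, the motif shown lies further off, at -237 of a start. The window of the other start has a match at 43, which may be the same site and is not shown.

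The counts by role that follow stand beside the shares over all genes tested, 5.72% higher at day 3 and 7.44% at day 5. Of the 4 box C/D and U3 proteins 3 rose at day 3 and 1 at day 5. RRP9, which binds the U3 snoRNA needed for cutting the precursor of the small subunit RNA, had the largest log2 fold change of the 4 at day 3 (ENSG00000114767, chromosome 3, 51933430 to 51941941, minus strand, GRCh38). RRP9 stood at 53.5 and 63.9 CPM in the 2 control libraries, 136 and 139 in those of day 3, and 84.2 and 72.2 in those of day 5. Both day 3 libraries were above all others, and both day 5 libraries lay between the controls and day 3. Its log2 fold change was 1.23 (log2, adjusted p = 0.0032 by edgeR, SE 0.14) at day 3 and 0.41 (log2, adjusted p = 0.0895 by edgeR, SE 0.14) at day 5.

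NOP58 and NOP56 are the paired scaffold proteins of every box C/D snoRNP, and 1 of the 2 was called at day 5. NOP58 (ENSG00000055044, chromosome 2, 202265716 to 202303666, plus strand) stood at 110.2 and 92.2 CPM in the 2 control libraries, 169.5 and 166 in those of day 3, and 209 and 172 in those of day 5. The KO libraries of both days were above both controls, with log2 fold changes of 0.73 (log2, adjusted p = 0.0193 by edgeR, SE 0.14) and 0.91 (log2, adjusted p = 0.00744 by edgeR, SE 0.14). NOP56 (ENSG00000101361, chromosome 20, 2652145 to 2658393, plus strand) stood at 256 and 224 CPM in the 2 control libraries, 366 and 389.5 in those of day 3, and 265 and 235 in those of day 5. It rose at day 3, by 0.66 (log2, adjusted p = 0.0181 by edgeR, SE 0.13), and at day 5 its libraries overlapped the controls, with 0.06 (log2, adjusted p = 0.798 by edgeR, SE 0.13). FBL, the methyltransferase of the particle, stood at 418 and 523 CPM in the 2 control libraries, 580.5 and 590.3 in those of day 3, and 501 and 463 in those of day 5. The day 3 libraries were above both controls, but the difference of 0.32 (log2, adjusted p = 0.173 by edgeR, SE 0.14) did not pass the threshold, and at day 5 it was 0.03. Between the days NOP58 was the only member with a positive log2 difference, of 0.18 (log2, adjusted p = 0.59 by edgeR, SE 0.14), which did not pass. The NOP58 call at day 5 was kept in all 16 alternative settings, and the NOP56 and NOP58 calls at day 3 were lost without KO day 3 replicate 1 or 2 and with limma on log2(FPKM + 1) without a filter.

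**Figure D2:**
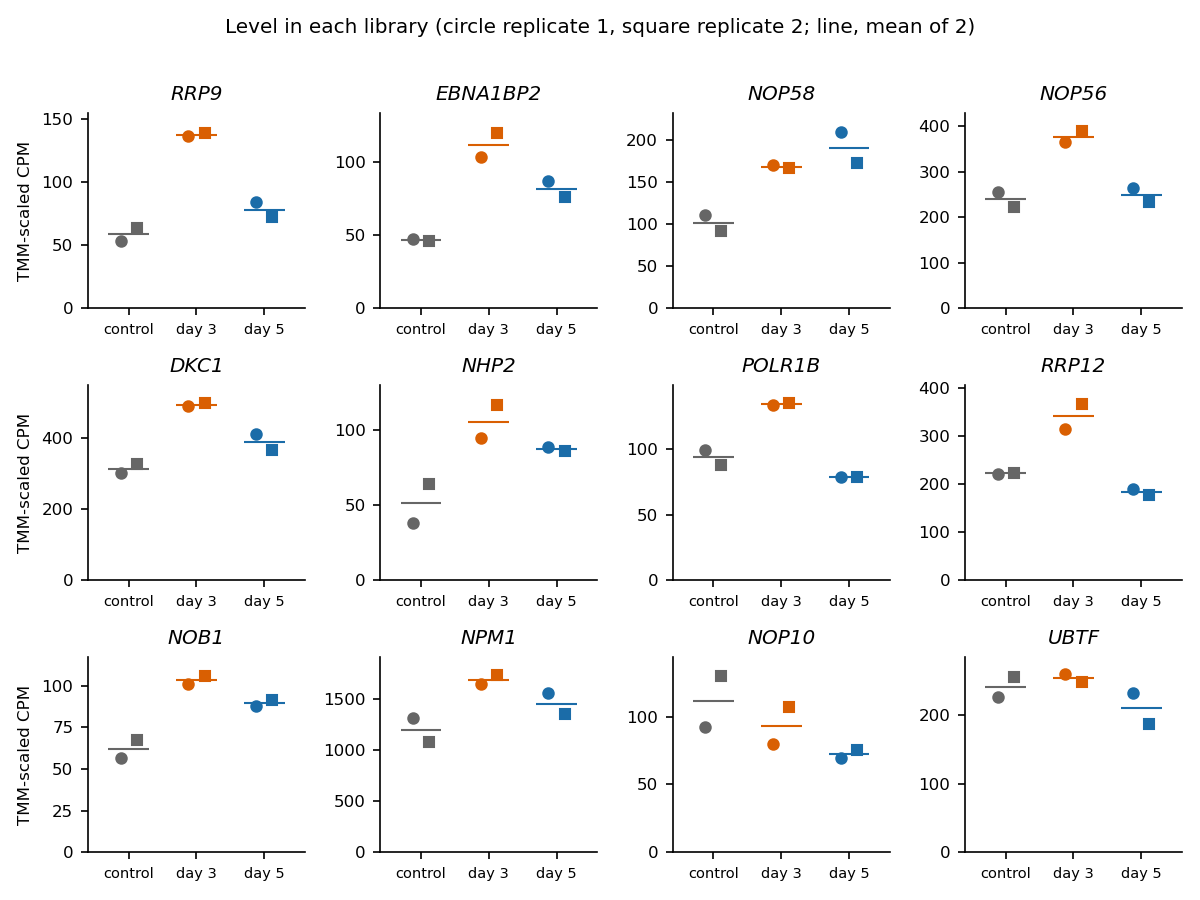
TMM-scaled CPM (vertical axis, from 0) of 12 members in each library, with circles for replicate 1, squares for replicate 2 and a line at the mean of 2. RRP9, NOP56, POLR1B and RRP12 are highest at day 3, NOP58 stays high at day 5, and NOP10 and UBTF do not rise.

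Of the box H/ACA proteins 3 of 4 rose at day 3, and NOP10 did not. DKC1, the pseudouridine synthase of the particle, stood at 299.6 and 327 CPM in the 2 control libraries, 488 and 497 in those of day 3, and 411 and 364 in those of day 5. Its day 3 and day 5 libraries were all above both controls, with log2 fold changes of 0.65 (log2, adjusted p = 0.015 by edgeR, SE 0.12) and 0.31 (log2, adjusted p = 0.126 by edgeR, SE 0.12). GAR1 stood at 42.1 and 62.1 CPM in the 2 control libraries, 87.4 and 107 in those of day 3, and 71.7 and 61.6 in those of day 5. Its controls were far apart for this level, and the log2 fold change at day 3 was 0.90 (log2, adjusted p = 0.0312 by edgeR, SE 0.21). NHP2 stood at 38.4 and 64.3 CPM in the 2 control libraries, 94.7 and 117 in those of day 3, and 89 and 86.6 in those of day 5, with 1.04 (log2, adjusted p = 0.0336 by edgeR, SE 0.24) at day 3 and 0.77 (log2, adjusted p = 0.0705 by edgeR, SE 0.24) at day 5. Both GAR1 and NHP2 are small RNA-binding partners of DKC1, and in both genes control replicate 1 was the lowest library. Their day 3 calls were lost in 5 (GAR1) and 6 (NHP2) of 16 settings. NOP10, the smallest protein of the particle, was not called. It stood at 92.6 and 130.1 CPM in the 2 control libraries, 79.6 and 107 in those of day 3, and 69.8 and 75.1 in those of day 5, and overlapped the controls at day 3, with -0.26 (log2, adjusted p = 0.44 by edgeR, SE 0.20). At day 5 both libraries were below both controls, with -0.62 (log2, adjusted p = 0.0789 by edgeR, SE 0.20). NOP10 was called lower at day 5 with DESeq2, without a low-count filter, with the replicate block and without control replicate 1.

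Of the 4 RNA polymerase I subunits 2 rose at day 3, and at day 5, 3 of the 4 had values below control that did not pass. POLR1A, the largest subunit, stood at 163 and 143 CPM in the 2 control libraries, 201 and 207 in those of day 3, and 146 and 122 in those of day 5, with 0.41 (log2, adjusted p = 0.0847 by edgeR, SE 0.13) at day 3. POLR1B, the second largest, stood at 99.6 and 88.1 CPM in the 2 control libraries, 134 and 135 in those of day 3, and 79.2 and 78.7 in those of day 5. Both day 3 libraries of POLR1B were above all others and both day 5 libraries below all others. Its log2 fold change was 0.52 (log2, adjusted p = 0.0313 by edgeR, SE 0.12) at day 3, a call lost in 9 of 16 alternative settings, and -0.25 (log2, adjusted p = 0.201 by edgeR, SE 0.12) at day 5. POLR1C, a subunit shared with RNA polymerase III, stood at 42.9 and 44.8 CPM in the 2 control libraries, 50.2 and 52.9 in those of day 3, and 36.3 and 27.2 in those of day 5. It differed by 0.23 (log2, adjusted p = 0.403 by edgeR, SE 0.17) at day 3 and -0.47 (log2, adjusted p = 0.107 by edgeR, SE 0.17) at day 5, and was called lower at day 5 without a low-count filter and with the replicate block. POLR1E, a subunit of polymerase I alone, stood at 51.7 and 51.2 CPM in the 2 control libraries, 69.6 and 76.6 in those of day 3, and 60.3 and 61.6 in those of day 5, and rose at day 3, with 0.51 (log2, adjusted p = 0.0386 by edgeR, SE 0.13), a call lost in 8 of 16 settings, among them those without control replicate 1 or 2.

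UBTF and TCOF1, which act with the polymerase, were not called at either day. UBTF, which binds the ribosomal DNA promoter, stood at 225 and 255 CPM in the 2 control libraries, 259 and 248 in those of day 3, and 231 and 187 in those of day 5. Its groups overlapped at both days, with log2 fold changes of 0.08 (log2, adjusted p = 0.758 by edgeR, SE 0.14) and -0.20 (log2, adjusted p = 0.377 by edgeR, SE 0.14). TCOF1 (treacle), which links polymerase I to the modification of its transcript, stood at 121 and 129.9 CPM in the 2 control libraries, 114 and 116 in those of day 3, and 102 and 103 in those of day 5. Both KO groups of TCOF1 were below both controls, by -0.13 (log2, adjusted p = 0.504 by edgeR, SE 0.11) and -0.29 (log2, adjusted p = 0.123 by edgeR, SE 0.11), and neither difference passed. TCOF1 and NOP10 were the only members with a negative log2 fold change at day 3.

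In the small subunit processome 3 of 8 members rose at day 3 and 0 at day 5. For all 8 both day 3 libraries were above both controls, where 30.3% of all genes tested were so. Their log2 fold changes were 0.19 to 0.89. UTP15, UTP4, HEATR1 and WDR43 belong to the subcomplex that first meets the precursor. UTP15 stood at 21.1 and 17.1 CPM in the 2 control libraries, 35.7 and 34.9 in those of day 3, and 32.3 and 23.7 in those of day 5, with 0.89 (log2, adjusted p = 0.03 by edgeR, SE 0.20) at day 3 and 0.55 (log2, adjusted p = 0.108 by edgeR, SE 0.20) at day 5. UTP4 stood at 117 and 117 CPM in the 2 control libraries, 153 and 163 in those of day 3, and 135 and 125 in those of day 5. Its rise of 0.44 (log2, adjusted p = 0.0461 by edgeR, SE 0.11) at day 3 was lost in 10 of 16 settings, and that of UTP15 in 6. HEATR1 and WDR43 differed by 0.43 (log2, adjusted p = 0.0782 by edgeR, SE 0.13) and 0.31 (log2, adjusted p = 0.158 by edgeR, SE 0.13) at day 3.

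IMP4, a partner of the U3 snoRNA, stood at 107 and 123 CPM in the 2 control libraries, 171 and 182 in those of day 3, and 118 and 129 in those of day 5. It rose at day 3, by 0.62 (log2, adjusted p = 0.0211 by edgeR, SE 0.13), and stood at 0.10 (log2, adjusted p = 0.636 by edgeR, SE 0.13) at day 5. The helicase DDX10 differed on the log2 scale by 0.47 at day 3 and 0.45 at day 5 (edgeR adjusted p = 0.107 and 0.107). NOP14 and UTP20 differed on the log2 scale by 0.19 and 0.55 at day 3 and by -0.19 and -0.14 at day 5, and did not pass.

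Late factors of the small subunit rose in 4 of 6 members at day 3. NOB1 is the endonuclease that makes the mature end of 18S ribosomal RNA, and PNO1 is its binding partner. NOB1 (ENSG00000141101, chromosome 16, 69741867 to 69754940, minus strand) stood at 56.6 and 67.3 CPM in the 2 control libraries, 101 and 106 in those of day 3, and 87.7 and 91.4 in those of day 5. All 4 KO libraries were above both controls, with 0.74 (log2, adjusted p = 0.0137 by edgeR, SE 0.13) at day 3 and 0.53 (log2, adjusted p = 0.0339 by edgeR, SE 0.13) at day 5. The day 5 call of NOB1 was lost in 7 settings, among them those without control replicate 1 and without any of the 4 KO libraries (edgeR adjusted p from 0.0842 to 0.143 in those 4). PNO1 stood at 34.9 and 27.4 CPM in the 2 control libraries, 49.7 and 54.3 in those of day 3, and 40.5 and 36.7 in those of day 5, with 0.74 (log2, adjusted p = 0.029 by edgeR, SE 0.17) and 0.31 (log2, adjusted p = 0.249 by edgeR, SE 0.17).

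RRP12, which takes part in export of the precursor subunits, stood at 222 and 224 CPM in the 2 control libraries, 316 and 368 in those of day 3, and 190.3 and 177 in those of day 5. Its day 3 libraries were above, and its day 5 libraries below, both controls. The log2 fold change was 0.61 (log2, adjusted p = 0.0198 by edgeR, SE 0.12) at day 3 and -0.28 (log2, adjusted p = 0.165 by edgeR, SE 0.12) at day 5, and its difference between the days, -0.89 (log2, adjusted p = 0.109 by edgeR, SE 0.12), was the most negative of the 49 members. BYSL (bystin), an assembly factor of the small subunit precursor, stood at 66 and 78 CPM in the 2 control libraries, 101 and 114 in those of day 3, and 73.2 and 74.9 in those of day 5. It rose at day 3 by 0.58 (log2, adjusted p = 0.0327 by edgeR, SE 0.14) and stood at 0.04 (log2, adjusted p = 0.876 by edgeR, SE 0.14) at day 5. The day 3 call of BYSL was lost in 5 of 16 settings. LTV1 and TSR1 differed by 0.45 (log2, adjusted p = 0.165 by edgeR, SE 0.19) and 0.72 (log2, adjusted p = 0.216 by edgeR, SE 0.33) at day 3. TSR1 was uneven within groups, at 80.6 and 130.4 CPM in the 2 control libraries, 130.4 and 218 in those of day 3, and 110.4 and 151 in those of day 5, with replicate 2 the higher library in all 3 groups.

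Assembly of the large subunit is covered by 14 members, of which 6 rose at day 3 and 2 at day 5. EBNA1BP2, a nucleolar factor for processing of the large subunit RNA, had the largest log2 fold change among the 49 members at day 3 (ENSG00000117395, chromosome 1, 43164175 to 43270936, minus strand). EBNA1BP2 stood at 47.3 and 46 CPM in the 2 control libraries, 103 and 119.6 in those of day 3, and 86.5 and 76.1 in those of day 5. All 4 KO libraries were above both controls, by 1.25 (log2, adjusted p = 0.00264 by edgeR, SE 0.14) and 0.80 (log2, adjusted p = 0.00987 by edgeR, SE 0.14). The day 3 call was kept in all 16 settings, and the day 5 call was lost when KO day 5 replicate 1 was left out, at an adjusted p of 0.0579 by edgeR. DDX18, an RNA helicase, stood at 152 and 139.7 CPM in the 2 control libraries, 206 and 228 in those of day 3, and 223 and 193 in those of day 5, and rose by 0.58 (log2, adjusted p = 0.0278 by edgeR, SE 0.13) and 0.51 (log2, adjusted p = 0.0348 by edgeR, SE 0.13). The day 5 call of DDX18 was lost without control replicate 2 (edgeR adjusted p = 0.103) and without any of the 4 KO libraries. NIP7, which takes part in 60S maturation, stood at 70.6 and 74.9 CPM in the 2 control libraries, 114 and 121 in those of day 3, and 97.5 and 93.4 in those of day 5, and rose at day 3 by 0.69 (log2, adjusted p = 0.0116 by edgeR, SE 0.12). Its day 5 libraries were above both controls too, with 0.39 (log2, adjusted p = 0.0616 by edgeR, SE 0.12). NOP16 stood at 36.7 and 47 CPM in the 2 control libraries, 67.5 and 78.2 in those of day 3, and 46.5 and 43.4 in those of day 5, and rose at day 3 by 0.80 (log2, adjusted p = 0.0215 by edgeR, SE 0.16). Its day 5 libraries overlapped the controls. NOC2L stood at 142 and 193 CPM in the 2 control libraries, 258 and 263 in those of day 3, and 206 and 216 in those of day 5, and rose by 0.64 (log2, adjusted p = 0.0361 by edgeR, SE 0.16), a call lost without control replicate 1 and in 7 other settings.

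PES1, BOP1 and WDR12 form the PeBoW complex, and 1 of the 3 was called at day 3. PES1 stood at 155 and 193 CPM in the 2 control libraries and at 246 and 280.3 in those of day 3. In those of day 5 it stood at 177 and 175, between its controls. PES1 rose at day 3 by 0.59 (log2, adjusted p = 0.0338 by edgeR, SE 0.14), a call lost in 7 of 16 settings. BOP1 stood at 256 and 327 CPM in the 2 control libraries, 376 and 416 in those of day 3, and 291 and 310.1 in those of day 5. Its difference of 0.44 (log2, adjusted p = 0.0877 by edgeR, SE 0.14) at day 3 did not pass. WDR12 stood at 199 and 184 CPM in the 2 control libraries, 185 and 204 in those of day 3, and 176 and 173 in those of day 5. Its groups overlapped at day 3, with 0.02 (log2, adjusted p = 0.936 by edgeR, SE 0.12). The other factors tested, RRS1, RRP1B, URB2, MRTO4 and PPAN, differed on the log2 scale by 0.43, 0.42, 0.46, 0.35 and 0.40 at day 3, and none passed. NOP2, a methyltransferase of the large subunit RNA, had only 1 to 24 counts per library. Of its exon bases 54.4% are shared with AC006064.6, another protein-coding gene on the same strand in GENCODE release 29, so no direction is read from NOP2. PPAN shares 59.8% of its exon bases, mainly with the read-through gene PPAN-P2RY11, and is uncertain for the same reason. Overlap with other genes, from which reads cannot be told apart here, was smaller but above 20% of exon bases in LTV1 (34.8%), NHP2 (27.4%), PA2G4 (23.5%), HEATR1 (23.2%), TSR1 (20.8%), EBNA1BP2 (20.5%), NOB1 (20.2%) and NIP7 (20.2%).

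Of the 7 abundant nucleolar proteins 1 rose at day 3 and 0 at day 5. NCL (nucleolin) stood at 1003 and 902 CPM in the 2 control libraries, 1322 and 1381 in those of day 3, and 1187 and 1001 in those of day 5. Both day 3 libraries were above both controls, and the rise of 0.50 (log2, adjusted p = 0.0449 by edgeR, SE 0.13) was lost in 7 of 16 settings. NPM1 (nucleophosmin), a histone chaperone and nucleolar scaffold that is often mutated in leukaemia, stood at 1314 and 1081 CPM in the 2 control libraries, 1639.7 and 1733 in those of day 3, and 1552 and 1352 in those of day 5. Its day 3 and day 5 libraries were all above both controls, with 0.49 (log2, adjusted p = 0.0586 by edgeR, SE 0.14) at day 3 and 0.28 (log2, adjusted p = 0.221 by edgeR, SE 0.14) at day 5. NPM1 passed at day 3 with DESeq2, without a filter, with the replicate block and without control replicate 1. GENCODE lists 45 named pseudogenes of NPM1, so reads of NPM1 may be lost to or gained from copies. PA2G4, DDX21, NOLC1 and GNL3, the last known as nucleostemin, differed on the log2 scale by 0.48, 0.39, 0.36 and 0.26 at day 3 (edgeR adjusted p = 0.0517, 0.118, 0.107 and 0.182). MYBBP1A stood at 193 and 313 CPM in the 2 control libraries, 269 and 408 in those of day 3, and 181 and 256 in those of day 5, with replicate 2 higher in each group and 0.42 (log2, adjusted p = 0.426 by edgeR, SE 0.31) at day 3.

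**Figure D3:**
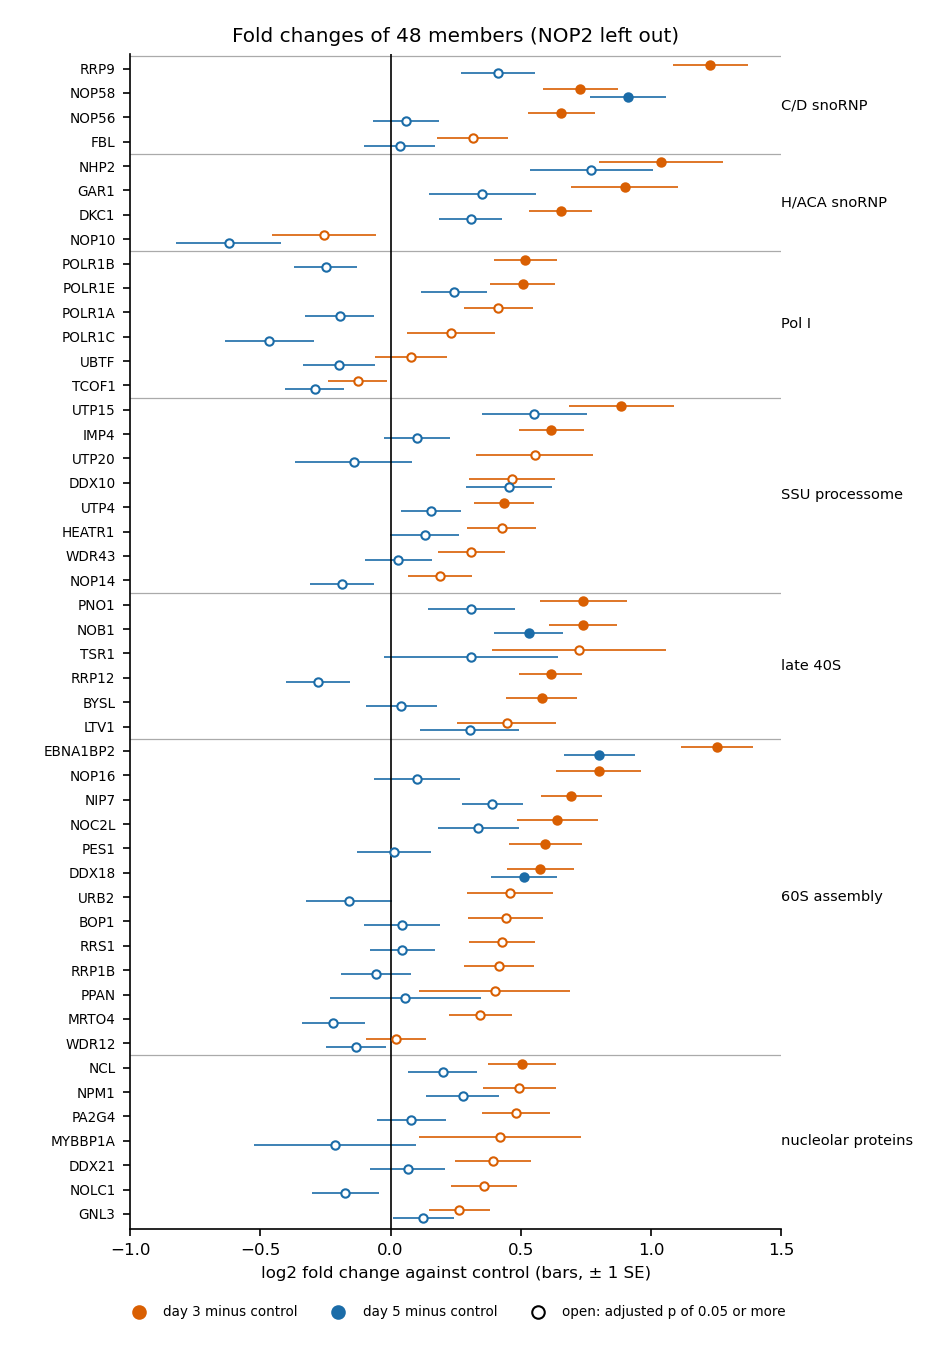
Log2 fold change against control (horizontal axis, bars ± 1 SE) at day 3 and day 5 for 48 members grouped by role, filled where the edgeR adjusted p is under 0.05. Filled points are 22 at day 3, all above 0, and 4 at day 5 (NOP58, NOB1, EBNA1BP2 and DDX18); NOP2 is left out for its few counts.

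The 4 members that rose at day 5 were among the 22 that rose at day 3. The 22 had a median log2 fold change of 0.65 at day 3 and 0.31 at day 5, and both comparisons share the control libraries. The 22 were picked by their high day 3 values, so a smaller median at day 5 can follow from that choice. At day 5, 20 of them stood above control and 2 (POLR1B and RRP12) below. Over all genes tested 7452 of 14601 stood above control. The day 5 count also depended on single libraries. It was 1 without KO day 5 replicate 1 (2.78% of all genes were called higher) and 2 without KO day 5 replicate 2 (2.32%). Leaving out KO day 3 replicate 1 gave 2 (3.93%), as did leaving out its replicate 2 (4.12%) or fitting just the control and day 5 libraries (4.2%).

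Set directly against day 3, 48 of 49 members had lower values at day 5, with a median log2 difference of -0.38, beside 0.02 over all genes tested. Both day 5 libraries were below both day 3 libraries for 43 members, where 23.8% of all genes tested were so. None of these differences passed in edgeR without a block: 0 members rose and 0 fell, where 0.0274% and 0.0% of all genes did. At an unadjusted edgeR p under 0.05, 26 members were lower and 0 higher, where 6.55% and 8.55% of all genes were. DESeq2 called 12 members lower and 0 higher, where it called 1.32% of its genes lower, and edgeR without a filter on low counts called 17 lower, where 1.34% were. With the replicate number as a block edgeR called 19 members lower and 0 higher, where 3.21% of all genes were called lower. limma on the FPKM values called 0 in its 3 settings. The 12 members that DESeq2 called were BYSL, IMP4, MRTO4, NOLC1, NOP16, NOP56, PES1, POLR1A, POLR1B, POLR1C, RRP12 and RRP9. By role the median difference was -0.44 for the polymerase I genes, -0.44 for box C/D, -0.42 for late small subunit and for large subunit factors, -0.35 for H/ACA, -0.33 for nucleolar proteins and -0.31 for the processome. The day 5 and day 3 groups differ in length of doxycycline exposure and time since induction together.

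Levels per gene length spanned a wide range. By the mean of the deposited FPKM values, which are per length and per library total, NPM1 led in the controls at 313 ± 46.8 (SD, n = 2), followed by FBL at 216 ± 31.4, NOP10 at 200.4 ± 45.2, DDX21 at 142 ± 23 and NCL at 137 ± 12. FBL and NOP10, and DDX21 and NCL, lay within their spread of each other. Polymerase I subunits were in the lower part of the order, with POLR1E at 20.4 ± 0.368, POLR1B at 14.8 ± 1.47, POLR1A at 11.3 ± 1.15 and POLR1C at 7.89 ± 0.145. Processome members DDX10 and UTP15 were lower still, at 3.74 ± 0.542 and 3.02 ± 0.487. RRP9 moved from 37.1 ± 4.19 to 84.8 ± 0.326 FPKM at day 3, and EBNA1BP2 from 13.1 ± 0.426 to 30.4 ± 2.7. Of the 4 H/ACA genes NOP10 stood at 164 ± 31.2, DKC1 at 114 ± 0.419, NHP2 at 68.1 ± 8.88 and GAR1 at 46.2 ± 5.89 FPKM at day 3. In the controls DKC1, NHP2 and GAR1 stood at 74.3 ± 3.63, 33.9 ± 11.7 and 25.4 ± 6.56, so NOP10 had the highest FPKM of the 4 in both groups. The order between genes depends on the length used, that of all annotated exons, which was 554 bases for NOP10 and 4203 for DKC1. These are mRNA levels, and protein was not measured here.

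**Figure D4:**
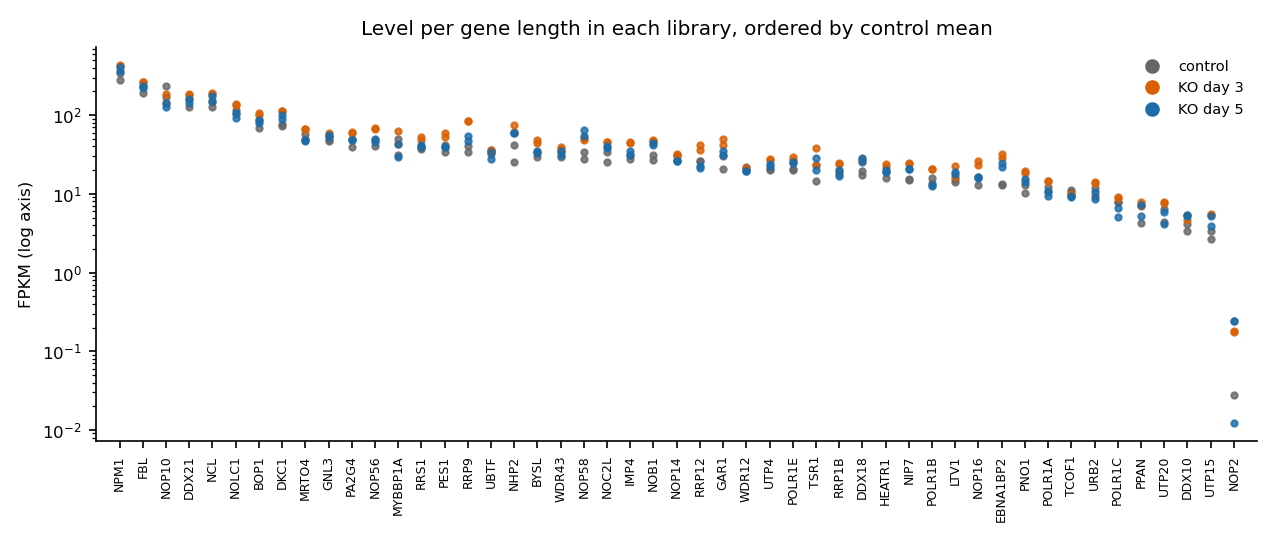
Deposited FPKM (vertical log axis) of the 49 members in each of the 6 libraries, ordered by the control mean and coloured by group. NPM1, FBL and NOP10 lead, and NOP2 lies far below the rest.

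Further genes of the pathway were higher than control at day 3 too, by their counts. A list of 120 further genes was drawn up by function, also with earlier results of these data known. All 120 were found in the table and tested. At day 3, 32 rose and 0 fell, where 5.72% of all genes tested rose and 5.99% fell, with a median log2 fold change of 0.37. At day 5, 16 rose and 3 fell, where 7.44% of all genes tested rose and 7.05% fell, with a median of 0.13. The same shares over all genes stand beside the counts of the single lists below. Between the days 0 passed in either direction in edgeR (45 of 120 at an unadjusted p under 0.05, either direction, where 15.1% of all genes tested were so), with a median of -0.21.

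In the processome, 11 of 39 genes rose at day 3 and 5 at day 5. PDCD11, the human RRP5 that serves both subunits, stood at 250.4 and 252 CPM in the 2 control libraries, 492 and 529.5 in those of day 3, and 351 and 346 in those of day 5, with 1.02 (log2, adjusted p = 0.00256 by edgeR, SE 0.11) at day 3. BMS1, a GTPase, rose on the log2 scale by 0.71 at day 3 and 0.55 at day 5. UTP3 rose by 0.72 (log2, adjusted p = 0.0243 by edgeR, SE 0.15) and 1.03 (log2, adjusted p = 0.00599 by edgeR, SE 0.15), and KRR1 by 0.79 (log2, adjusted p = 0.0178 by edgeR, SE 0.16) at day 5. UTP11, RRP36 and DDX47, the last near the detection floor, had log2 fold changes of 0.05, 0.03 and -0.13 at day 3, with no call.

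Among other large subunit genes 15 of 50 rose at day 3, and 8 rose and 2 fell at day 5. RPF2, which brings the 5S ribonucleoprotein to the precursor with RRS1, rose by 1.02 (log2, adjusted p = 0.00358 by edgeR, SE 0.12) and 1.01 (log2, adjusted p = 0.00334 by edgeR, SE 0.12). RRS1, its partner and a member here, differed on the log2 scale by 0.43 and 0.04 and did not pass. LAS1L, an endonuclease for the internal spacer, rose by 1.04 (log2, adjusted p = 0.00376 by edgeR, SE 0.13). MTREX, the helicase of the nuclear exosome, rose at day 5, by 0.57 (log2, adjusted p = 0.0253 by edgeR, SE 0.13). Its log2 difference at day 3 was 0.18, and the days did not differ past the threshold (edgeR adjusted p = 0.25). The genes that fell at day 5 were NLE1, at -0.75 (log2, adjusted p = 0.0348 by edgeR, SE 0.19), and the helicase DDX56, at -0.43 (log2, adjusted p = 0.0428 by edgeR, SE 0.11). DDX24, NVL and DDX55 differed on the log2 scale by 0.02, 0.01 and 0.15 at day 3, with no call.

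Of 15 further polymerase I genes 2 rose at both days and 1 fell at day 5. ZNRD1, a small subunit of the enzyme, rose by 1.11 (log2, adjusted p = 0.00725 by edgeR, SE 0.16) at day 3 and was called higher at day 5 too (edgeR adjusted p = 0.00841). TAF1D, of the promoter selectivity factor, rose by 0.89 (log2, adjusted p = 0.00596 by edgeR, SE 0.12) and 0.97 (log2, adjusted p = 0.00376 by edgeR, SE 0.12). CD3EAP, the partner of POLR1E, stood at 12.9 and 9.2 CPM in the 2 control libraries, 10.6 and 14 in those of day 3, and 4.98 and 3.22 in those of day 5. It differed on the log2 scale by 0.16 at day 3 and fell at day 5, at -1.43 (log2, adjusted p = 0.0258 by edgeR, SE 0.32). TWISTNB, a stalk subunit, did not pass, with replicate 1 the higher library in every group. For the snoRNPs, 3 of 11 assembly genes rose at day 3, among them RUVBL2, by 0.85 (log2, adjusted p = 0.0201 by edgeR, SE 0.17), and ZNHIT6, by 0.59 (log2, adjusted p = 0.0295 by edgeR, SE 0.13). Both day 3 libraries were above both controls for 7 of the 11 and below for 3, where 30.3% and 30.1% of all genes tested were so. Of 5 further late small subunit genes only FAM207A was called at day 3, by 1.10 (log2, adjusted p = 0.0416 by edgeR, SE 0.27).

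**Figure D5:**
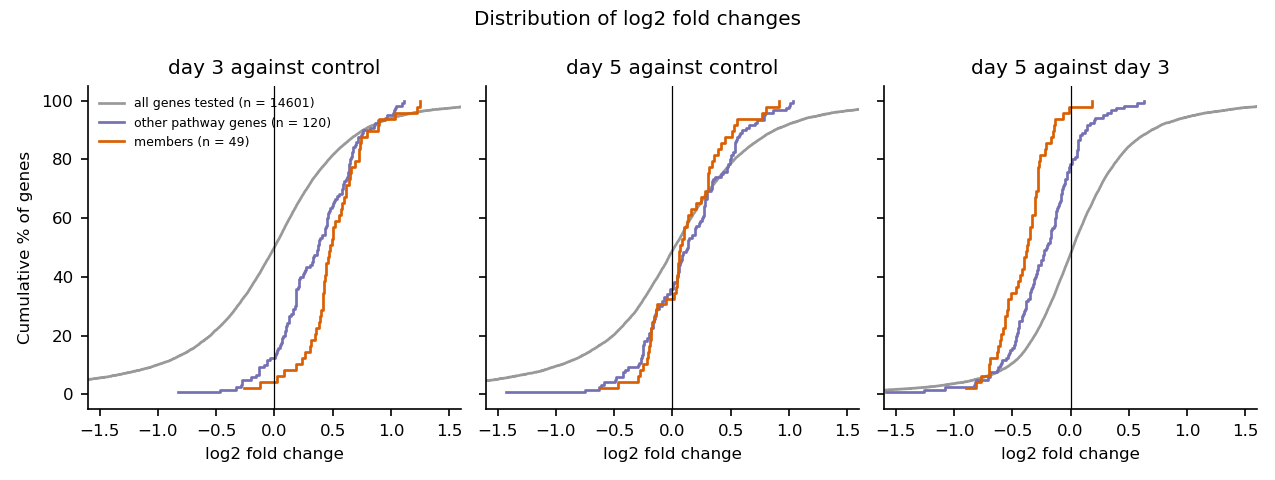
Cumulative percent of genes (vertical) by log2 fold change (horizontal) for the 49 members, 120 other pathway genes and 14601 genes tested, in the 3 comparisons. Members and other pathway genes lie to the right of all genes at day 3 (medians 0.48 and 0.37), near them at day 5 (0.07 and 0.13), and to the left between the days (-0.38 and -0.21).

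MYC rose at day 3. It stood at 614 and 603 CPM in the 2 control libraries, 891 and 1112 in those of day 3, and 509.9 and 545 in those of day 5, with 0.72 (log2, adjusted p = 0.0169 by edgeR, SE 0.14) at day 3, -0.21 (log2, adjusted p = 0.345 by edgeR, SE 0.14) at day 5 and -0.93 (log2, adjusted p = 0.125 by edgeR, SE 0.14) between the days. Its part in the members' values was not tested.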

How the data were processed

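Poly-A RNA of 6 MOLM-13 libraries was sequenced, in 3 groups of 2 taken from the labels. The deposited table gives raw read counts and FPKM per gene, per the file headers. The submitters' processing notes name HISAT2, HTSeq 0.11.2, DESeq2 1.26.0 and GRCh38 without a role. How reads were counted is not stated there. The deposited FPKM rest on the table total and on a gene length that matched GENCODE release 29 exon length within 0.5 bases for 99.7% of genes. The kit is not stated to keep strand, so overlapping genes cannot be told apart.

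Counts were tested with edgeR 4.0.16 in R 4.3.3 (robust quasi-likelihood test, TMM factors of 0.962 to 1.04, genes with a minimum count of 10 and a total of 15). All 6 libraries entered 1 model without a block, and p-values were adjusted over 14601 genes (Benjamini-Hochberg, threshold 0.05). Levels are TMM-scaled CPM. The SE was taken as the size of the log2 fold change divided by the root of the F statistic. In the shallowest library 3 counts, the limit that a count of 0 allows, equal 0.194 CPM, which covers counting error only. The scripts were tested on simulated data. There, edgeR recovered 38.8% of 2-fold changes for day 3 against control, 23.2% for day 5 against control and 34.4% for day 5 against day 3. Of 4-fold changes it recovered 70.3%, 81.1% and 74%, with 13, 17 and 18 false calls. A gene that was not called may thus still differ. The changed genes were drawn at random from all genes tested, so these rates are not particular to the members. For day 3 against control the median SE was 0.14 for the members and 0.24 over all genes tested. Alternatives were other scaling factors, other filters, DESeq2 1.42.0, the 4 libraries compared alone, the replicate number as a block, each library left out, and limma 3.58.1 on the log2 scale of FPKM, with a pseudocount of 1 or 0.1 for genes with a mean FPKM of 0.5 or more, and with 1 for every gene. Per-library values were given for role anchors and for the 10 further members with the smallest adjusted p. TCOF1, TSR1, UTP4 and MYBBP1A were added after their values were seen. Other pathway genes were named from those with the smallest and the largest adjusted p in each list. Those with the largest were left out for the late small subunit and snoRNP lists, and in part for the others. Members, lists and tests were chosen with earlier results of these data known.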

Additional observations from a re-analysis of the deposited data

How the results depend on the processing

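Of the 22 members that rose at day 3, EBNA1BP2 and RRP9 passed in all 16 alternatives, and of the 4 at day 5 NOP58 did. The other 20 calls at day 3 were each lost in 3 to 10 of the 16. The count at day 3 was 13 with only the 4 libraries compared, 2 with limma on log2(FPKM + 1) without a filter, and 2 to 18 when single libraries were left out. The count higher at day 5 was 2 with only the 4 libraries compared (4.2% of all genes) and 2 with unfiltered limma (1.3%). It was 5 with edgeR without a filter (5.83%) and 5 with DESeq2 (8.25%). When single libraries were left out, the members' median log2 fold change at day 5 was 0.04 to 0.12. The count lower at day 5 was 2 without a filter (7.17% of all genes) and 1 with DESeq2 (9.21%). Between the days 17 members were lower without a filter, 12 with DESeq2, and 0 to 2 when single libraries were left out. Leaving out a library leaves 1 sample in its group, which is then assumed to vary like the others. No called value changed sign. The cause of these shifts was not tested.

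With the replicate number as a block, 37 members were higher at day 3 (13.6% of all genes) and 11 at day 5 (15.8%), 2 were lower at day 5 (14.5%), and 19 were lower at day 5 than at day 3 (3.21%). Deviations from the group means correlated between same-numbered libraries at 0.355 for control and day 3, 0.303 for control and day 5, and 0.347 for day 3 and day 5, over 14601 genes. Same-numbered libraries thus deviated together, and their titles share a letter. The labels do not say what the number or letter marks, and each comparison has 2 numbers.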
